A study of Caenorhabditis elegans with 4 samples.

Results

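The 500 strongest LIN-35::GFP sites are the 500 peaks at the head of the combined list of 4794 peaks, or 10.4% of it. They were chosen by the score that the authors gave each peak, highest first, and within equal scores by the authors' peak number, lowest first. The position a peak takes in this order is called its place. Place 1 is called the strongest, and weaker peaks are those of later place. The study measured binding by chromatin immunoprecipitation and sequencing (ChIP-seq) in fed hermaphrodite *Caenorhabditis elegans* larvae of the first larval stage (L1), grown at 20 °C. All samples came from strain YL409, which carries unc-119(ed3) and the transgene vrIs60, in which the *lin-35* promoter drives LIN-35 joined to GFP and FLAG, with the 3′-UTR of *dpl-1* and an *unc-119* rescue gene. The animals had not been outcrossed, whole larvae were used, and the precipitated protein is the tagged copy. Formaldehyde was used at 2% for all samples. The 2 ChIP replicates have a peak list each, and the 2 inputs were not analysed here.

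LIN-35 is the worm member of the retinoblastoma family of pocket proteins. It does not bind DNA by itself: in the DREAM complex it is held at promoters by the E2F-like protein EFL-1 with its partner DPL-1 and by the MuvB core, and it represses cell cycle genes and, in somatic cells, genes of the germ line. Signal from whole larvae sums over cells, so binding in more cells and stronger binding per cell cannot be told apart. The labels number the replicates without saying whether they came from separate cultures.

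The head of the list was set by peak number alone. All 500 members had the same score, the ceiling of 3.94, which 3870 of the remaining 4294 peaks shared, and the place of every member equalled its peak number. Their matched peaks also sat at the score ceiling of both replicates, 500 of 500 in replicate 1 and 500 of 500 in replicate 2. What the authors ordered the peak numbers by is not given in the sources used here. The limit at place 500 runs through a smooth order: the last members named, on chromosome III at 4019891 to 4020095 (place 499) and on II at 4299349 to 4299537 (place 500), ranked 666 and 637 in replicate 1 and 445 and 448 in replicate 2. Just outside, the peak on V at 10361873 to 10362072 (place 501) ranked 348 and 626, that on III at 5228015 to 5228220 (place 502) 526 and 495, and the next one, on V at 6100671 to 6100898, 409 and 558, in replicates 1 and 2 in this order. Positions are in WormBase WS220 coordinates, counted from 1. Since the combined list comes from the same 2 replicates, the ranks and positions below describe the members and are not tested. Genes and sequence there were not analysed here.

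The strongest sites had individually sized peaks, and their width fell in step with their place. The 500 members were 162 to 579 bp wide with a median of 244.5 bp (quartiles 222 and 269 bp), and only 1 of them, at place 352, had the width of 324 bp that 3439 of the 4294 remaining peaks shared (0.2% against 80.1%). The first 100 members had a median of 285.5 bp, and the next 4 sets of 100 had medians of 260, 242.5, 223.5 and 208.5 bp. Across the 500 members Spearman's rho between place and width was -0.85. Replicate ranks gave similar values, -0.82 in replicate 1 and -0.83 in replicate 2. These are correlations across peaks that share libraries and a peak caller. The trend went on beyond the limit: peaks of places 501 to 1000 that did not have the shared width were narrower still, with a median of 173 bp (n = 478), and those of places 1001 to 1500 had a median of 123 bp (n = 279). The first of the remaining peaks at the shared width came at place 697.

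**Figure D1:**
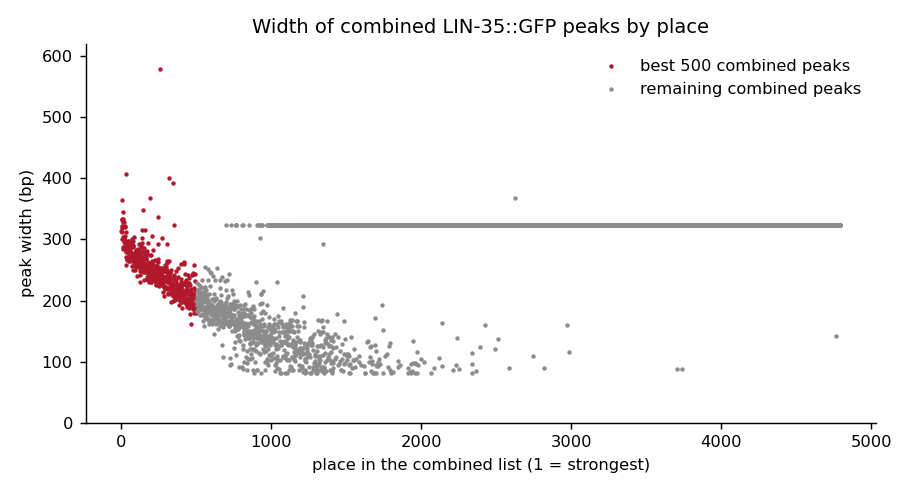
Width in bp (vertical axis) of each combined peak against its place in the combined list (horizontal axis), with the 500 strongest in red and the remaining peaks in grey. Width falls over the red points to a median of 208.5 bp in the last 100, continues to fall among the grey ones, and the flat grey line is the shared width of 324 bp.

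Peaks matched to members were also mostly individually sized in each replicate list taken alone. The replicate 1 peaks matched to members had a median width of 178.5 bp, and 56 of the 500 (11.2%) had that list's shared width of 300 bp. The replicate 2 peaks had a median of 234 bp, and 2 of 500 (0.4%) had its shared width of 336 bp. Of the 4294 remaining combined peaks, 92.6% matched a peak of the shared width in replicate 1 and 84.4% in replicate 2. At places 501 to 1000 this was 86.8% in replicate 1 but 12.8% in replicate 2. In replicate 2 individually sized peaks thus went on beyond the limit. The 56 members at the shared width of replicate 1 came late, with 0, 0, 1, 13 and 42 of them in the 5 successive sets of 100 places.

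A few members stood out from this order as too wide for their place. The widest, on chromosome II at 14251342 to 14251920 (place 255), measured 579 bp. Its replicate 2 peak was 577 bp wide and its replicate 1 peak 215 bp, and their midpoints lay 140 bp apart. The narrowest named member, on III at 3801464 to 3801625 (place 462), measured 162 bp, and its replicate midpoints lay 3 bp apart. Not every wide member was out of order, since places 2 and 3 measured 332 and 334 bp. In all, 14 members were wider than the shared 324 bp, 8 of them wider than 340 bp, against 1 of the remaining peaks. That remaining peak repeats a member. The position 13199678 to 13200045 on chromosome II is listed at place 192 and again at place 2624, 368 bp wide in both entries, and overlaps 2 peaks in either replicate.

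Both replicates ranked the members at the head of their own lists. A replicate peak was matched to a member when they overlapped by at least 1 bp, and the best-ranked was taken where several did. All 500 members had a match in both lists. Their ranks ran from 1 to 694 of 26583 in replicate 1 (median 252.5, quartiles 126 and 381) and from 1 to 639 of 28727 in replicate 2 (median 250.5, quartiles 126 and 375). Of the 500, 454 (90.8%) were among the best 500 of replicate 1, 473 (94.6%) among those of replicate 2, and 428 (85.6%, Wilson 95% interval 82.3 to 88.4%) among those of both. Replicate 1 alone held 26, replicate 2 alone 45, and 1 member was outside both. This interval and those below cover counting error only and treat peaks as independent.

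The top of the order was shared site by site. The strongest member, on chromosome II at 10563347 to 10563660, ranked 1 in replicate 1 and 2 in replicate 2. Place 2, on III at 3867377 to 3867708, ranked 2 and 1. Place 3, on V at 10897200 to 10897533, ranked 5 and 3. Exact order was looser than membership: the 10 best peaks of the replicates had 7 combined peaks in common, the 50 best 36, the 100 best 78 and the 200 best 174 (87%). The share was 86.6% for the best 500, 84.6% for the best 1000 and 67.7% for the best 2000. Only 1401 peaks of replicate 2 sat at its score ceiling, against 3446 in replicate 1. For the best 2000, the order of replicate 2 thus rests partly on score, and that of replicate 1 on peak number alone. The part of this in the lower share was not tested. The 433 combined peaks in common at 500 are 428 members and 5 weaker peaks. These 5, at places 737 to 3007, each share their replicate 2 peak with a better-placed combined peak. They are thus not further replicate peaks in common.

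Ranks of the same member differed by a median factor of 1.33 between replicates (quartiles 1.14 and 1.59), and by at most 2 in 459 of 500 (91.8%). For the remaining peaks found in both lists the median factor was 1.61 (quartiles 1.24 and 2.40, n = 4046). Places 501 to 1000 and 2501 to 3000, with medians of 1.28, were closer than the members by this measure. All member ranks were set by peak number within a tied score. Of the remaining peaks, 2647 matched a ceiling peak in replicate 1 and 910 in replicate 2, and the other ranks follow score first. The part of this in the contrasts of rank given here was not tested. Neither replicate ranked the members higher throughout, since 231 had the better rank in replicate 1, 268 in replicate 2, and 1 had the same rank in both. Spearman's rho between the replicate ranks was 0.84 over the 500 members. In the 8 other full blocks of 500 places it lay between -0.60 and 0.62. A block cut from an order made from both replicates limits the range of both ranks, and within successive sets of 100 members rho was 0.56, 0.14, -0.41, -0.55 and -0.65 in list order. The values therefore describe these blocks only.

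**Figure D2:**
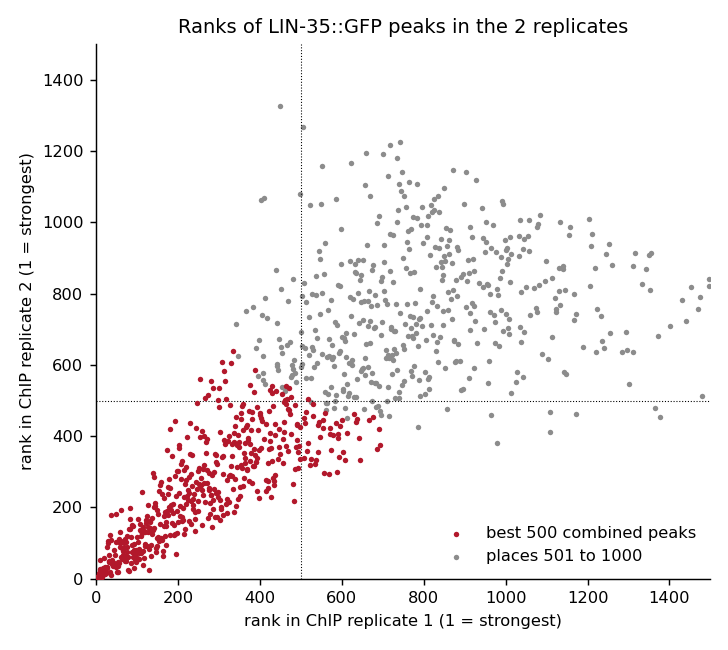
Rank in ChIP replicate 1 (horizontal axis) against rank in ChIP replicate 2 (vertical axis) of the peaks matched to the 500 strongest combined peaks (red) and to places 501 to 1000 (grey), with dotted lines at rank 500. The red points reach rank 694 on the horizontal and 639 on the vertical axis, 428 of them lie inside both lines, and 18 of the grey peaks are not drawn because a rank exceeds 1500 or is missing.

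Members with the largest ratios between their replicate ranks are named here, and a ratio weighs a given difference more at low rank numbers. The largest ratio among the named chromosomes was at III, 5871787 to 5872041 (place 109), ranked 38 in replicate 1 and 180 in replicate 2. Next came another site on III at 7198851 to 7199126 (place 121), ranked 48 and 182. A site on IV at 13240498 to 13240794 (place 63) ranked 29 and 106. Replicate 1 gave all 3 the better rank. In the opposite direction, a site on II at 10798482 to 10798747 (place 36) ranked 80 in replicate 1 and 22 in replicate 2, whereas one on II at 4828131 to 4828387 (place 74) again ranked better in replicate 1, 35 against 122. The replicate midpoints of these 5 members lay 0 to 9.5 bp apart, so their positions were shared even where their ranks were not.

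Peaks that stood in the head of a replicate without being members were few and mostly lay just below the limit. Of the best 500 peaks of replicate 1, 455 overlapped a member and 42 overlapped a weaker combined peak. The last 3 were on the mitochondrial genome. Of the best 500 of replicate 2, 473 overlapped a member, 25 a weaker combined peak, and 2 were mitochondrial. With each replicate peak assigned to the best-placed combined peak it overlapped, these weaker ones reached down to place 979 for replicate 1 and 647 for replicate 2. Counted from the combined list, 43 weaker peaks had their match in the best 500 of replicate 1 only (median place 546, last 3221), 25 in that of replicate 2 only (median 527, last 647) and 5 in both (median 2624, last 3007). The 5 in both, from place 737 on, shared their replicate 2 peak with a better-placed combined peak.

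The replicates placed the strongest sites almost on the same base pairs. The midpoints of the replicate 1 and replicate 2 peaks of a member lay a median of 7 bp apart (quartiles 3 and 12.5 bp), against 29 bp for the remaining peaks found in both (quartiles 12 and 63 bp, n = 4046). The distance was at most 10 bp in 333 of 500 members (66.6%), against 874 of 4294 remaining peaks (20.4%), and at most 50 bp in 493 of 500 (98.6%), against 64.2%. Both shares of the remaining peaks are of all 4294, so those without a match in both replicates count as farther apart. Medians rose block by block, to 14.5 bp at places 501 to 1000 and 53.5 bp at places 4001 to 4500. Within the members the first 100 had a median of 5.25 bp and the last 100 had 10 bp. Only 7 members exceeded 50 bp, and the largest distance was 225.5 bp. Peaks of a fixed shared width are common among the remaining peaks and rare among the members, and the part of width in this difference was not tested.

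**Figure D3:**
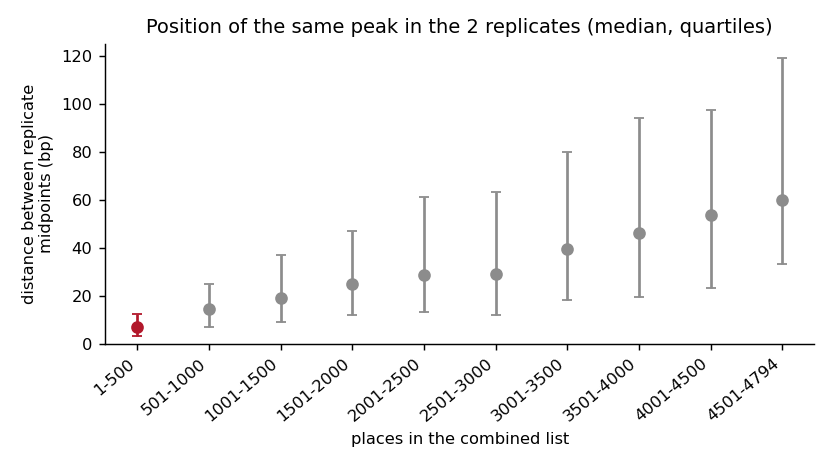
Distance in bp between the replicate 1 and replicate 2 midpoints of a combined peak (vertical axis; points are medians, bars the quartiles) by block of places in the combined list (horizontal axis), with the 500 strongest in red at the left. The median is 7 bp for the members and 14.5 bp or more in each following block.

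Each member was nearly always a single peak in both replicates. Exactly 1 peak of either replicate overlapped 490 of 500 members (98.0%, interval 96.4 to 98.9%), against 3484 of 4294 remaining peaks (81.1%, 79.9 to 82.3%). In the 8 other full blocks of 500 this share ran from 70.8 to 93.2%. More than 1 peak of a replicate overlapped 10 members (2%) and 587 remaining peaks (13.7%).

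The members were spread over all 5 autosomes and were scarce on X. Chromosome III held 125 (25% of the members against 18.7% of the remaining peaks), I 105 (21.0% against 19.7%), II 93 (18.6% against 15.4%), IV 91 (18.2% against 16.6%) and V 78 (15.6% against 14.3%), whereas X held 8 (1.6% against 15.3%). The share on X was graded along the list: it was 7.6% at places 501 to 1000, 11.4 and 12.2% in the next 2 blocks of 500, and 17 to 17.8% in the 5 full blocks after those. Per megabase of chromosome spanned by the lists this was 9.07 members on III, 6.97 on I, 6.09 on II, 5.20 on IV, 3.73 on V and 0.452 on X. Once among the members, autosomal sites were much alike, with median widths of 242 to 250 bp, median replicate distances of 6 to 8.5 bp and median places of 226 to 276. The 8 on X came late, at places 216 to 497 with a median of 375.5. They ranked 140 to 676 in replicate 1 and 288 to 542 in replicate 2, and their median width was 234.5 bp.

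Members were mostly far apart from each other. The nearest other member lay at a median of 49261.5 bp (quartiles 16337 and 119575 bp), midpoint to midpoint. In the 8 other blocks of 500 places the same measure, taken within the block, gave medians of 51692 to 67986 bp. The members' value lies just below this range. More of the members are autosomal than in any other block: on autosomes alone the median was 44986 bp among 492 members, against 49500 to 66804 bp among 411 to 462 peaks in each other block, so that number and spacing move together. Within 50 kb, 254 members (50.8%) had another member, against 203 to 241 peaks with a partner in the other blocks. Within 1 kb only 2 members had one, against 2 to 12. On the autosomes 487 intervals separated neighbouring members, with a median length of 105 kb and a median of 5 weaker peaks inside. In 78 of these intervals there was no weaker peak.

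Neighbours of a member were also somewhat more often members than neighbours of other peaks were. The nearest combined peak was a member for 81 of 500 members (16.2%, interval 13.2 to 19.7%), against 413 of 4294 remaining peaks (9.62%, 8.77 to 10.5%) and 8.2 to 12% in the other full blocks. On autosomes alone it was 16.5% against 9.73 to 13%. In genome order 77 pairs of members followed each other with no weaker peak between, against 42 to 64 pairs within the other blocks. A weaker peak with the same midpoint as a member counts as between here, but did not for the 78 intervals above. Runs were short: 361 members had no member directly beside them, 49 runs held 2 members, 11 held 3 and 2 held 4.

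Close pairs of strong sites were rare. The closest were on chromosome IV at 16415135 to 16415373 (place 294) and 16415649 to 16415879 (place 307), with 510 bp between midpoints. Their ranks were also close, 288 and 299 for the first and 329 and 315 for the second in replicates 1 and 2. Among the named chromosomes, II to V and X, the next pair was on III at 7498406 to 7498727 (place 28) and 7499479 to 7499691 (place 314). It was 1018.5 bp apart and unequal, ranked 27 and 30 against 420 and 273. A pair on IV at 6321728 to 6321995 (place 71) and 6323736 to 6323963 (place 408) lay 1988 bp apart. Pairs on V at 2600565 and 2603104 (places 244 and 407) and on IV at 15037018 and 15039578 (places 227 and 185), given by their starts, lay 2479 and 2569.5 bp apart. Of 494 neighbouring pairs of members on all chromosomes, 1 was within 1 kb, 8 within 2 kb and 25 within 5 kb. Pairs on chromosome I are in these counts but are not named, so closer pairs than some of those named exist.

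Members were more frequent in some stretches than in others. Among 822 autosomal windows of 100 kb, 475 (57.8%) held none, 238 held 1, 85 held 2, 20 held 3 and 4 held 4 or more. Places 501 to 1000 were spread much alike, leaving 490 of the same windows empty, and the largest count in a window was 5 for both sets. The windows with most members on the named chromosomes were 14300001 to 14400000 of II, with 5 members and 1 weaker peak, and 2600001 to 2700000 of V, with 4 members and 4 weaker peaks. Another 2 windows, on chromosome I, held 5 and 4. Across the 80 autosomal windows of 1 Mb, counts of members and of weaker peaks were related with Pearson's r of 0.47 and Spearman's rho of 0.44. For places 501 to 1000 against all other combined peaks rho was 0.60 over the same windows. These are descriptions of windows that share chromosomes. The densest 1 Mb window, 7000001 to 8000000 of chromosome III, held 14 members and 64 weaker peaks.

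**Figure D4:**
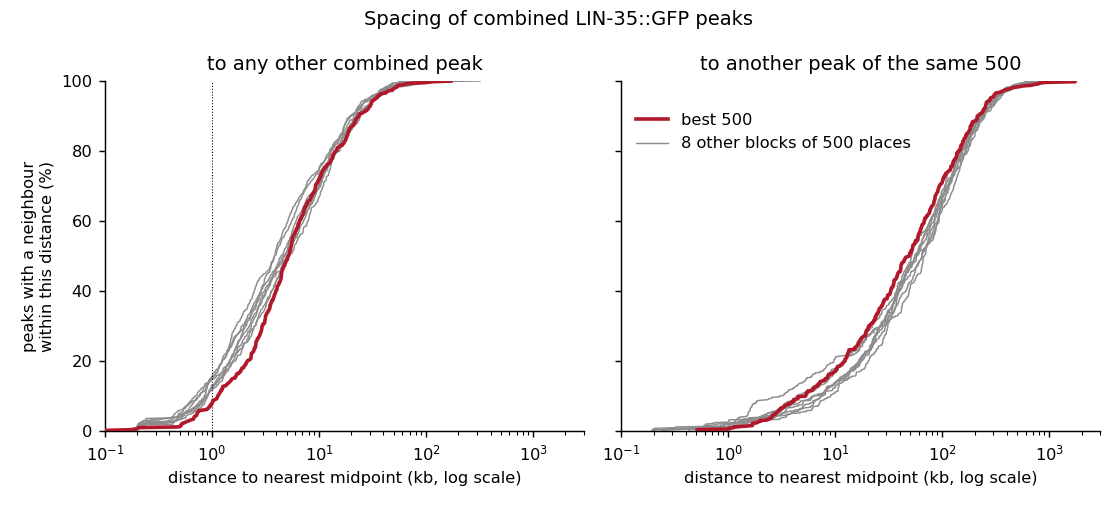
Percent of peaks (vertical axis) with a neighbour whose midpoint lies within the distance on the horizontal axis (kb, log scale), for the 500 strongest (red) and for each of 8 other blocks of 500 places (grey). On the left the neighbour is any other combined peak and the dotted line marks 1 kb, where the members reach 7.8% and the other blocks 11.8 to 15.4%. On the right it is a peak of the same block.

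The strongest sites had fewer combined peaks in their immediate surroundings than other sites. Another combined peak lay within 1 kb of 39 of 500 members (7.8%, interval 5.76 to 10.5%), against 589 of 4294 remaining peaks (13.7%, 12.7 to 14.8%) and 11.8 to 15.4% in each of the other full blocks. Within 500 bp it was 1.2% against 4.15%. Within 2 kb it was 18.4% against 28.7%. Distances of 2 to 5 kb were more common among members, 30.4% against 24.2%, and beyond 10 kb the shares were alike, 28.2% against 28.7%. Medians of the distance to any combined peak accordingly differed little, 5175 bp for members and 4497 bp for the remaining peaks. Within the members the share with a peak within 1 kb was 3% in the first 100 and 8, 6, 12 and 10% in the following sets of 100. By chromosome it was below the share of the remaining peaks on each of the 6, but the counts were small. It was 5.6% against 17.1% on III (7 of 125 members) and 13.2% against 16.7% on IV (12 of 91). On I it was 10.5% against 13.5% (11 of 105), and on X 0 of 8 members against 9.13%.

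Measured to weaker peaks alone, members lay a median of 6390 bp away (quartiles 2937 and 14608 bp). For the other blocks, measured in the same way to the combined peaks outside the block, medians ran from 4343 to 5872.5 bp. Of the 39 members with a combined peak within 1 kb, 37 had a weaker one as the nearest, of place 622 to 4682 with a median of 2170, and 2 had each other, the pair on IV named above. Among all weaker combined peaks, 5 were matched to the same replicate peaks as a member, and 1 of these is the position listed at 2 places.

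Over 1 kb as a whole, the single replicates had peaks beside members about as often as beside the remaining peaks. At the closest distances they had fewer, as given below. A further replicate peak, overlapping no part of the site and with its midpoint within 1 kb, stood beside 196 of 500 members in replicate 1 (39.2%, against 39.5% of the remaining peaks) and beside 236 in replicate 2 (47.2% against 45.3%). Both replicates had one beside 125 members (25%, interval 21.4 to 29.0%), against 24.9% of the remaining peaks. These further peaks were mostly weak. Beside members their median rank was 11860.5 in replicate 1 and 13400.5 in replicate 2, near the middle of the lists (13292 and 14364). Fewer of them were part of the combined list: 31 of 226 (13.7%) in replicate 1 and 37 of 292 (12.7%) in replicate 2 overlapped a combined peak, against 18.9 to 26.8% and 18.3 to 23.3% around the other blocks.

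Around members the further peaks were densest at 600 to 800 bp and scarce closer in. In replicate 2 their density was 0.705 per kb and site at 600 to 800 bp from a member, against 0.506 around the remaining peaks and at most 0.610 around any other full block. Farther out, at 1 to 2 kb, it was 0.434 against 0.502, below the range of 0.468 to 0.569 over the other blocks. Replicate 1 had 0.475 per kb at 600 to 800 bp, against 0.401 around the remaining peaks and within the range of 0.335 to 0.490 over the other blocks, and 0.368 against 0.403 at 1 to 2 kb, below the range of 0.375 to 0.416. At 400 to 600 bp members lay below all other full blocks. Replicate 1 had 0.27 per kb there, against 0.348 around the remaining peaks and 0.315 to 0.41 over the other blocks. Replicate 2 had 0.21, against 0.348 and 0.3 to 0.415. Closer than 400 bp there were 0 further peaks beside any member in either replicate. At 200 to 400 bp the remaining peaks had 0.0594 per kb in replicate 1 and 0.0210 in replicate 2. A further peak may not overlap its site, so peak widths limit such counts for members and remaining peaks alike. The part of width in this difference was not tested. From 5 kb outward the densities of members and remaining peaks were close, 0.307 and 0.314 in replicate 1 and 0.364 and 0.352 in replicate 2 at 5 to 10 kb.

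**Figure D5:**
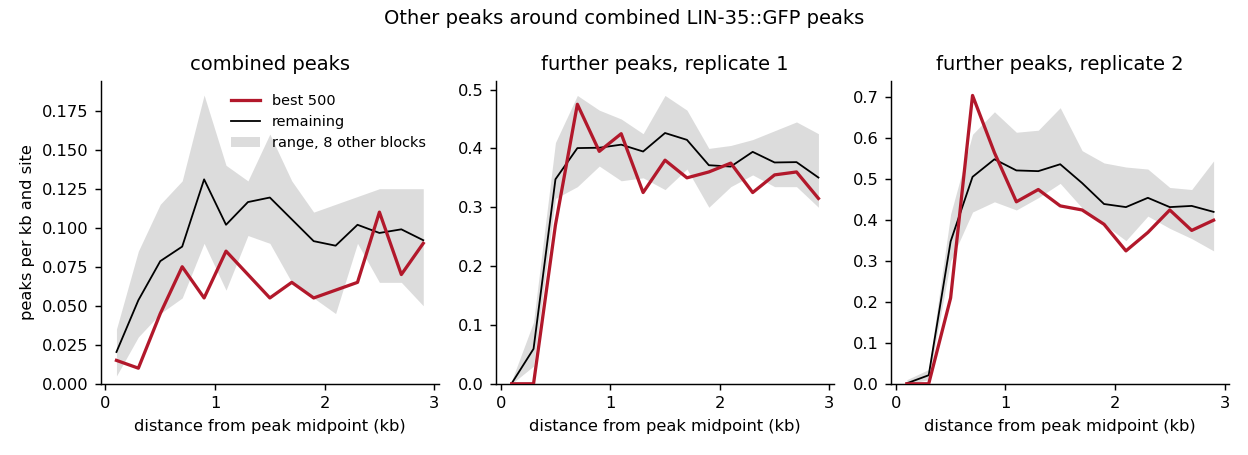
Number of other peaks per kb and site (vertical axes) by distance in kb from the midpoint of a combined peak (horizontal axes, steps of 200 bp), for combined peaks and for further peaks of replicates 1 and 2. Red lines are the 500 strongest, black lines the remaining combined peaks, and grey bands the range over 8 other blocks of 500 places. The red line lies below the black one for combined peaks out to 2 kb, and in replicate 2 it reaches 0.705 per kb at 600 to 800 bp.

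Some of the strongest sites stood alone. The member farthest from any combined peak was on chromosome V at 16965667 to 16965966 (place 19, ranked 24 and 16 in replicates 1 and 2). Its nearest combined peak lay 170676 bp away. It borders an interval of 956 kb without a member, in which there were 4 weaker peaks. A site on II at 3682885 to 3683089 (place 464) was 115144 bp from the next peak, and sites on V at 15766228 to 15766512 (place 59), 4450593 to 4450841 (place 152) and 5204202 to 5204481 (place 92) were 102118, 76443.5 and 64844 bp from it. None of these 5 had a further replicate 1 peak within 1 kb, and 2 of them had 1 in replicate 2. Beyond 50 kb from any combined peak there were 11 members (2.2%), against 65 of the remaining peaks (1.51%).

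Measured to the next member only, the most distant sites were on X. The members at 14101996 to 14102245 (place 216) and 15841088 to 15841283 (place 471) were 1739 kb apart with 73 weaker peaks between them, and those at 1446890 and 2242870 (places 479 and 497, by their starts) 795980 bp apart. The farthest on an autosome was at 1320492 to 1320785 of II (place 72), 883644 bp from the next member but 2725 bp from a weaker peak. The longest interval between members of 1 chromosome spanned 7297 kb of X and held 278 weaker peaks, and the longest on an autosome spanned 1444 kb of V and held 23. Stretches without strong sites were thus of both kinds, some with many weaker peaks and some with few.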

How the data were processed

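The deposit holds a peak list for each ChIP replicate and a combined list, with positions in WormBase WS220 per the file headers. Their source field, spp_via_IDR, points to SPP and a replicate-consistency filter. Aligner, versions, thresholds, use of input and the combining rule were not given in the sources used here. The score in each deposited list has no stated scale and served only to order peaks within that list, ties by peak number. Read depth is unknown. The members and measures were chosen with earlier results of these data known. Places, midpoint distances, overlaps of at least 1 bp and Wilson 95% intervals came from Python 3.11.15 with numpy 2.4.6, pandas 2.3.3 and scipy 1.17.1, plots from matplotlib 3.10.9, and the procedures were tested on simulated lists. No significance test was made, since the members were chosen by the values described. Consecutive blocks of 500 places gave comparisons at equal number. Peaks were named by rule (first, at the limit, largest rank ratio, closest, most isolated, widest, narrowest, on X), on chromosomes II to V and X only, and chromosome I enters all counts.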

Additional observations from a re-analysis of the deposited data

How the results depend on the processing

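Of 58 alternative values, 38 stayed within the 95% interval of the value reported, 20 moved out of it and 0 changed sign. Most that moved follow from changing the set or the limit itself. With the best 250 or the best 1000 peaks as members, the median distance to the next member was 100529 or 26105.5 bp, the share with a combined peak within 1 kb 5.6 or 11.2%, the share in both replicate heads 100 or 42.9%, the replicate distance 5 or 10 bp and the width 268 or 209 bp. The best 250 gave a rank correlation of 0.79. Facing edges in place of midpoints gave 12.6% within 1 kb, against 18.3% of the remaining peaks, and limits of 500 bp and 2 kb gave 1.2 and 18.4%. For further peaks in both replicates these limits gave 0 and 60.2%. Heads of 250 and 1000 replicate peaks held 42.6 and 100% of members. Overlap of at least 0.5 of the width of both peaks left 77.6% in both heads (the cause was not tested). Ordering by a single replicate gave rank correlations of 0.86 to 0.87 and 8.4 to 9.2% with a combined peak within 1 kb, against 13.6 and 13.6% of the rest and 10.6 to 15.6% in other blocks. Ranking replicate peaks by score alone gives no correlation, since all members tie. No paired analysis was possible because no result comes from a test. Without read depth, weak further peaks cannot be weighed by reads.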
